A study of Homo sapiens with 12 samples.

Results

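The response of p53 hairpin HepG2 cells to AICAR was measured as the arrays of sh-p53 cells kept in AICAR for 24 h minus the arrays of sh-p53 cells kept in DMSO for 24 h. Its members were all genes with a probe set that the platform annotation pairs with 1 gene symbol, 18417 in all, of which 13813 were bright enough to be tested and 4604 were left out as dim. The comparison used 4 of the 12 arrays of the series, 2 per group. HepG2 is an established human hepatoma line. The sh-p53 cells carried a small hairpin RNA against p53 and the sh-con cells a hairpin with no relevant target. Each line was treated with DMSO as the vehicle control, 10 uM Nutlin or 0.5 mM AICAR, with 700000 cells plated per well in biological duplicates. Nutlin and AICAR are both given as p53 stimulators, and the series addressed the transcription program that depends on p53. The labels name 1 line per hairpin and no clone number, so an effect of the hairpin and any further difference of the lines cannot be told apart. The transcript that the hairpin targets was not analysed here.

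AICAR is a cell-permeable nucleoside that adenosine kinase phosphorylates to ZMP, an intermediate of purine synthesis and an AMP mimetic. ZMP activates AMPK, the kinase that senses a low energy charge, and AMPK restrains anabolic pathways, among them mTORC1 signalling, fatty acid and sterol synthesis and ribosome production, while it favours fuel use. AMPK can also phosphorylate p53, and Nutlin raises p53 by a different route, by keeping MDM2, the ubiquitin ligase of p53, from binding it. Hepatocytes hold all of these programs together with glucose output, lipid export and secretion of plasma proteins, and HepG2 cells keep much of that identity.

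Values are deposited log2 intensities, so a difference of 1 is a 2-fold change, and calls rest on an adjusted p (Benjamini-Hochberg) below 0.05 in a limma fit over all 12 arrays. Errors are standard errors of that fit, with n = 2 arrays per group throughout. Replicate arrays correlated at 0.983 to 0.994 over the genes tested. The first principal component held 47% of the variance, with the 4 AICAR arrays at 33.89 to 45.17 and the other 8 arrays at -24.69 to -14.86. Hepatocyte markers were bright, with a mean of 11.20 to 11.36 in the 4 arrays compared, and 0 of 14 tested were called in either direction. Markers of hepatoma or fetal liver had 0 of 3 called, and their mean was 11.24 to 11.41. Of the markers of other cell types, endothelial genes had 0 of 3 tested members called and red cell genes 0 of 1, while 7 of 10 endothelial genes were left out as dim. Cholangiocyte and progenitor markers had 3 of 7 called lower, which were KRT19, CD24 and PROM1, and their mean was 8.09 and 8.22 in DMSO against 7.83 and 7.86 in AICAR. Without DMSO array 2 or AICAR array 1 that count was 1. Fibroblast and stellate markers had 1 of 5 called lower, ACTA2, with means of 5.87 to 6.03 in the 4 arrays. Leukocyte and macrophage markers had 3 of 5 called higher, which were CD68, CD14 and MARCO, with means of 7.43 and 7.34 in DMSO and 7.81 and 7.75 in AICAR. That count was 1 after centring of the arrays or with a stricter filter on dim genes, and 1 without DMSO array 2 or AICAR array 1. The stricter filter leaves out genes with a mean under 6.26, so here and below its counts also reflect members that were no longer tested. The part of these markers in the results was not tested.

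AICAR changed a large share of the genes measured in sh-p53 cells, and more fell than rose. Of the 13813 genes tested, 2235 rose and 2982 fell, which is 37.8% in all, 16.2% higher and 21.6% lower. Of those that rose 292 did so at least 2-fold, and of those that fell 806 did. In 73.2% of all genes tested the arrays of the groups did not overlap, and 5216 of the 5217 called genes were among them. Groups that do not overlap therefore add nothing to the call of a gene named below. The split of the calls by direction depended on the scaling. Of the calls 42.8% were higher in the deposited scaling, 40.6% after a second quantile normalisation and 23.1% after each array was centred on its median, which moved the median log2 fold change of all genes by -0.15, from 0.07. Centring gave 1100 genes higher and 3665 lower. Leaving out an array left 1 array in its group, so here and below such counts also reflect the loss of a replicate. The size of the change can be followed in genes whose locus spans 100 to 300 kb, with a median of -0.462 in the main fit. It was -0.433 without DMSO array 1 and -0.475 without DMSO array 2. Without AICAR array 1 it was -0.392 and without AICAR array 2 -0.521.

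The highest change was that of ARRDC4, an arrestin-domain protein of the family of TXNIP that limits glucose uptake. ARRDC4 read 6.11 and 5.61 in the DMSO arrays and 9.67 and 10.01 in the AICAR arrays. Both AICAR arrays lay far above both DMSO arrays, a rise of 3.98 ± 0.19 or 15.7-fold (adjusted p = 3.4e-10). MUC13, a transmembrane mucin of epithelial surfaces, read 5.21 and 5.27 in DMSO and 8.42 and 8.73 in AICAR, a rise of 3.34 ± 0.17 (adjusted p = 1.19e-09). HBEGF, a membrane-bound ligand of the EGF receptor, read 5.68 and 5.92 against 8.98 and 9.08, a rise of 3.23 ± 0.14 (adjusted p = 3.01e-10). All 3 genes lay below 6.26, the median gene level, in DMSO and above it in AICAR. RND1, which loosens cell adhesion, rose by 3.14 ± 0.17, and STARD5, a lipid transfer protein with a START domain, by 2.91 ± 0.21. The others among the 12 highest were HCP5, a noncoding RNA of the major histocompatibility region (2.76), the nuclear factor CSRNP2 (2.69), the polo-like kinase PLK2 (2.62), the zinc finger gene ZNF280A (2.56), the vesicle protein VAMP1 (2.54), cyclin E2, CCNE2 (2.48), and the MAP kinase phosphatase DUSP10 (2.40).

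The lowest change was that of a small nucleolar RNA, SNORD12C, at 8.39 and 8.99 in DMSO and 4.63 and 4.81 in AICAR. It fell by 3.97 ± 0.18 or 15.7-fold (adjusted p = 3.4e-10), with both AICAR arrays near the level under which genes were left out as dim, 4.58. TTC39B, which promotes turnover of the liver X receptor, read 7.86 and 7.98 against 4.56 and 4.52, and fell by 3.38 ± 0.22, a size that is uncertain because the AICAR values lie at that dim level. SLC7A11, the cystine importer that feeds glutathione synthesis, read 9.40 and 9.30 in DMSO and 5.79 and 6.30 in AICAR. It fell by 3.30 ± 0.19 (adjusted p = 3.76e-09). IGFBP1, a secreted binding protein of insulin-like growth factors made by the liver, read 10.47 and 10.31 against 7.43 and 6.94, and fell by 3.20 ± 0.22 (adjusted p = 1.31e-08). Transporters and nucleolar RNAs made up most of the other 8 of the 12 lowest. They were the amino acid transporter SLC6A14 (-2.89), the phosphate transporter SLC20A2 (-2.65), SNORD49A (-2.75), SNORD52 (-2.66), SNORA62 (-2.66), SNORA33 (-2.56), the splicing factor NSRP1 (-2.94) and the membrane protein TMEM45A (-2.55). The plot of the 24 genes by array includes the Nutlin arrays of the same line, and 0 of the 24 were called with Nutlin against DMSO.

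**Figure D1:**
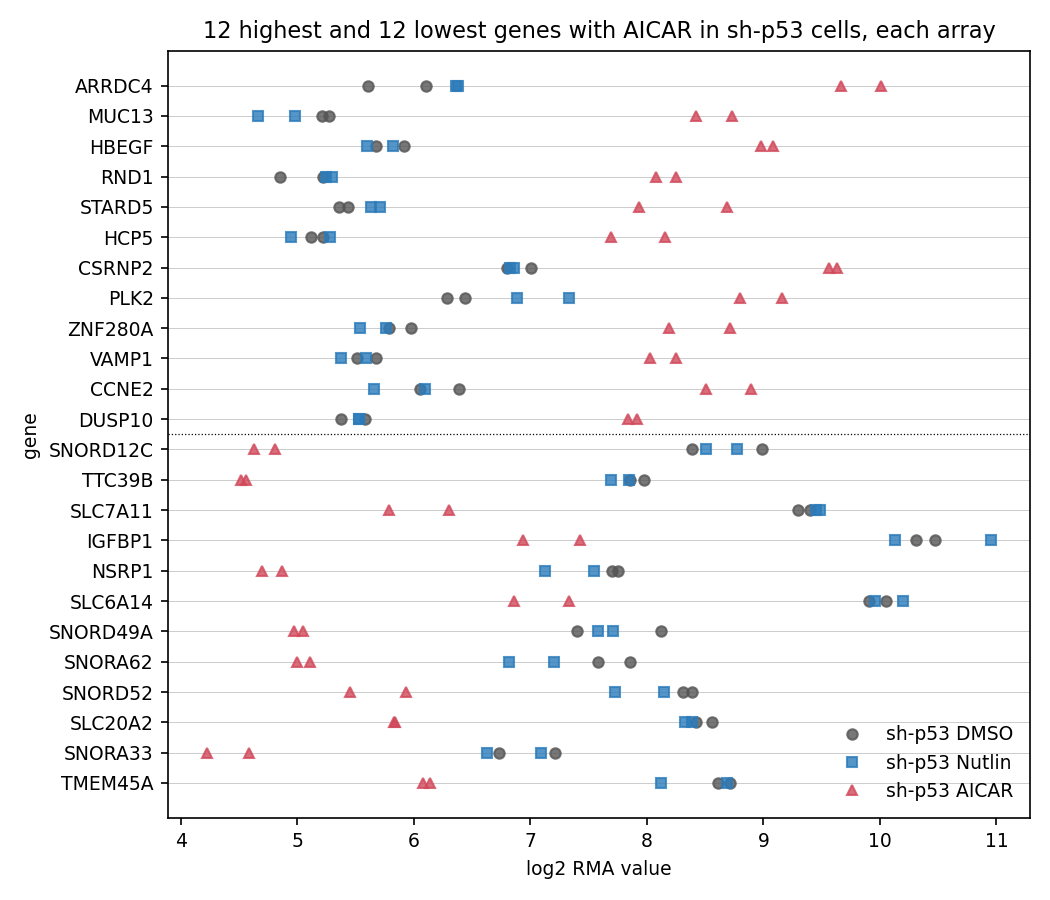
Log2 RMA values (x axis) of the 12 genes with the highest and the 12 with the lowest log2 fold change (rows) in each sh-p53 array, with DMSO as circles, Nutlin as squares and AICAR as triangles. ARRDC4 goes from 6.11 and 5.61 in DMSO to 9.67 and 10.01 in AICAR, and SNORD12C from 8.39 and 8.99 to 4.63 and 4.81.

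Genes were grouped into 43 lists by known function, drawn from textbook knowledge, and members named below beyond the 4 with the largest called change were chosen after their values were seen. The share of a list that was called is to be read against the 16.2% higher and 21.6% lower among all genes tested, and its median change against 0.07. The lists with the highest medians were the p53 targets of growth arrest (0.81) and sterol synthesis (0.46), and those with the lowest were the replication-dependent histones (-0.88), ribosome biogenesis (-0.56) and the amino acid response led by ATF4 (-0.54). These 5 medians kept their sign when arrays were centred. The plot of the lists gives the share of each that rose and fell.

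**Figure D2:**
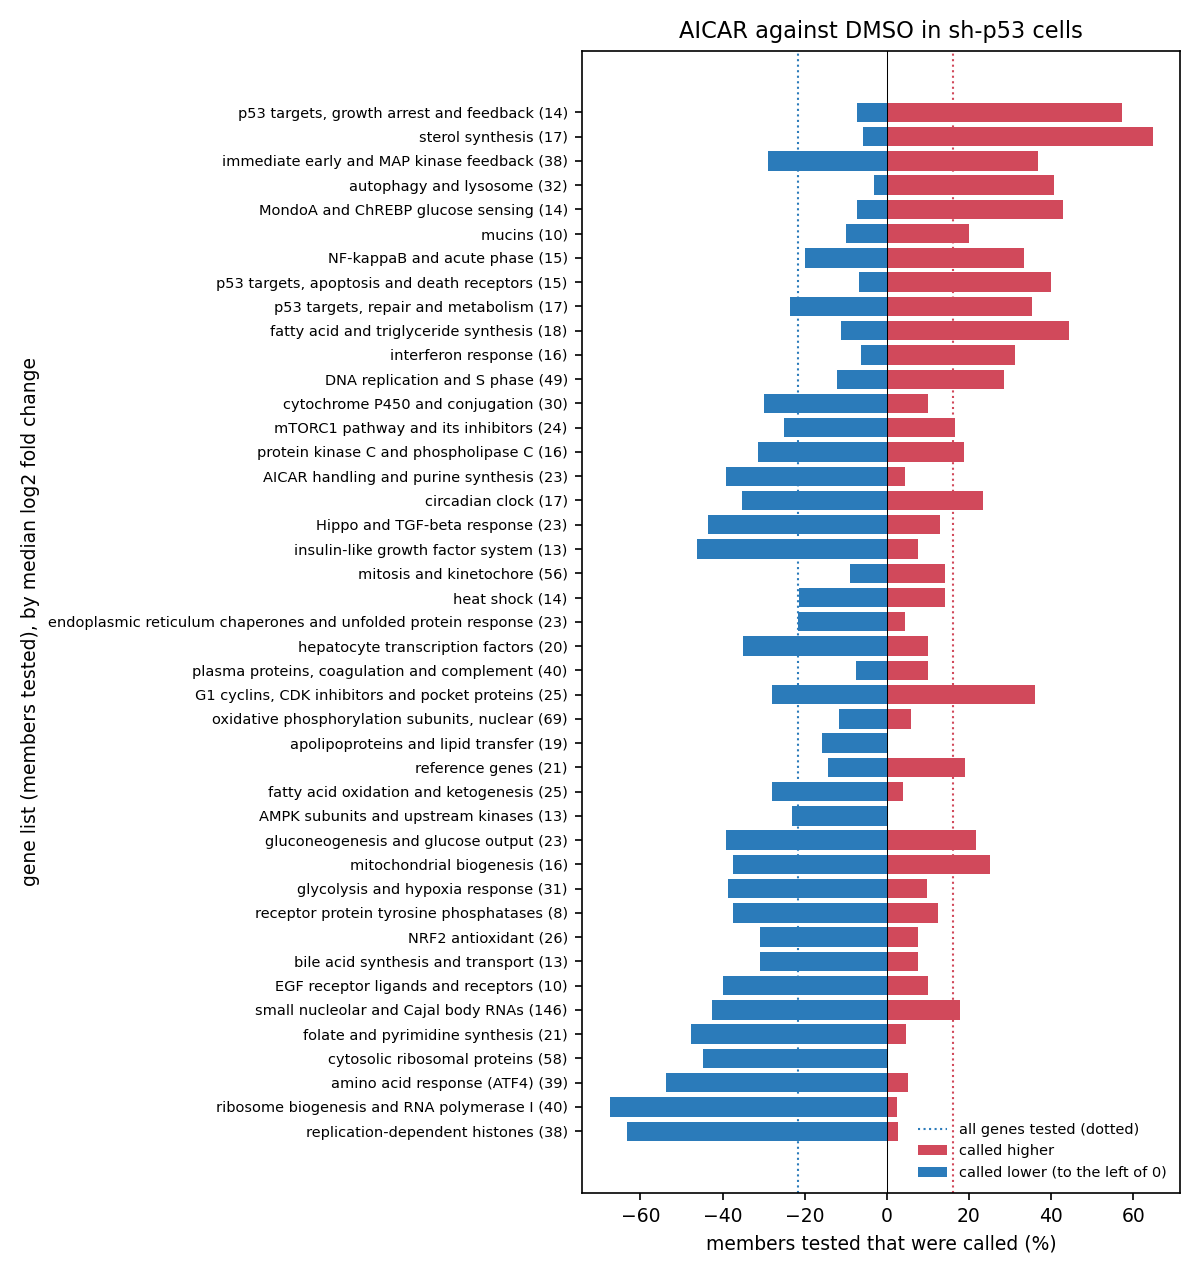
Share of the tested members of each of 43 gene lists that was called higher (right of 0) or lower (left of 0) with AICAR in sh-p53 cells, in percent, with lists ordered by median log2 fold change and the number tested in brackets. Dotted lines mark 16.2% higher and 21.6% lower over all genes tested; 24 of 38 histone genes and 27 of 40 genes of ribosome biogenesis lie on the lower side.

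The highest gene, ARRDC4, belongs to the targets of the glucose-sensing factors. MondoA and its liver relative ChREBP bind carbohydrate response elements, built around the letters CACGTG, when hexose phosphates accumulate, and TXNIP and ARRDC4 are their best known targets. Of 14 genes on that list 6 rose and 1 fell, with a median of 0.27. TXNIP, which restrains glucose uptake and thioredoxin, read 9.99 and 9.90 in DMSO and 11.24 and 11.29 in AICAR, a rise of 1.32 ± 0.16 (adjusted p = 6.36e-06). KLF10, a zinc finger factor of glucose metabolism, rose by 1.24 ± 0.14 and ARRDC3 by 1.08 ± 0.17. The fall was in ketohexokinase, KHK. The sensing factors themselves were not called, with MLXIP, the gene of MondoA, at -0.19, MLXIPL, that of ChREBP, at 0.01 and their partner MLX at -0.10. Genes of glucose entry and glycolysis went the other way in part, with 12 of 31 lower and 3 higher on the list of glycolysis and the hypoxia response. The glucose transporter SLC2A1 read 11.46 and 11.48 against 9.41 and 9.39 and fell by 2.07 ± 0.15, and SLC2A3 read 11.83 and 11.64 against 9.58 and 9.51 and fell by 2.19 ± 0.18. Hexokinase 2, HK2, fell by 1.66 ± 0.19, while the aldolase ALDOC rose by 1.81 ± 0.19. The core enzymes GAPDH and LDHA were not called, at -0.16 and -0.31. Leaving out any of the 4 arrays took the number of lower genes of this list from 12 to 7, and the number of higher genes was 1 without DMSO array 1 or AICAR array 2, or after centring.

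The promoters below are shown because the named genes that rose and fell both include promoters with this motif. They run from 250 bases to 1 base before the start in RefSeq on GRCh38.p14, 5′ to 3′ on the gene's strand, with CACGTG, or for MUC13 the cyclic AMP response element TGACGTCA, in capitals. ARRDC4 is at chr15:97960453-97960702 on the + strand and the sialidase NEU1 at chr6:31862822-31863071 on the - strand. ATF4 is at chr22:39520309-39520558 on the + strand and MUC13 at chr3:124934752-124935001 on the - strand.
ARRDC4: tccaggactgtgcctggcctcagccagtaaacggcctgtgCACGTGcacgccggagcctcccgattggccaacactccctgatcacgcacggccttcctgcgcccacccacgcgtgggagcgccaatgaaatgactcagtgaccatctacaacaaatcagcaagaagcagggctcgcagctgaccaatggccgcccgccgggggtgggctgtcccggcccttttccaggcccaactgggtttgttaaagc
NEU1: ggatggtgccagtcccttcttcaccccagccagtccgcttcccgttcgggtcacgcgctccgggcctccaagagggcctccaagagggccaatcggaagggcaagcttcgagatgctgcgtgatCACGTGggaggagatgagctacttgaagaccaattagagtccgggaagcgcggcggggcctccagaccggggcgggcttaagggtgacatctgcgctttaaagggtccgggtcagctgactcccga
ATF4: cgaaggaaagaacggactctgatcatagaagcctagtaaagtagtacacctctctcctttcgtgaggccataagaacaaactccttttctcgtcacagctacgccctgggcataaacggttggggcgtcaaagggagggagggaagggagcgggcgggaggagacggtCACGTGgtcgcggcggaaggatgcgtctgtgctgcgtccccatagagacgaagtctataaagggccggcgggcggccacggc
MUC13: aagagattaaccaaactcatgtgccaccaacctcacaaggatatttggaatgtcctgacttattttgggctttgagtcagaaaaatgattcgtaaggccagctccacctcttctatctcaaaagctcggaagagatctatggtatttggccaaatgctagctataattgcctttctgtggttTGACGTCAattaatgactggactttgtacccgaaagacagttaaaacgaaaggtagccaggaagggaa
The motif begins 210 bases before the start in ARRDC4, 126 in NEU1 and 82 in ATF4, and 68 in MUC13. Both motifs read the same on either strand and do not overlap each other. ARRDC4 rose by 3.98, NEU1 by 1.42 and MUC13 by 3.34, while ATF4 fell by 2.27. Of 27305 RefSeq promoters of 300 bases (250 before to 50 after the start) 7.43% held CACGTG and 1.98% TGACGTCA. A comparison of these shares between changed genes and all genes is void here, because only 78.4% of the tested genes had a promoter in the table.

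Few genes of the AMPK pathway itself were called. Of 13 AMPK subunits and upstream kinases 0 rose and 3 fell, with a median of -0.10. That is 23.1% called against 37.8% of all genes tested, and the share that fell was near the 21.6% of all genes. The catalytic subunit PRKAA2 read 8.72 and 8.62 in DMSO and 7.85 and 8.04 in AICAR and fell by 0.72 ± 0.15 (adjusted p = 0.00101), and STRADA, the partner of the upstream kinase LKB1, fell by 0.72 ± 0.15. The other catalytic subunit, PRKAA1, fell by 0.60 ± 0.16, and without AICAR array 1 the difference was -0.44 (adjusted p = 0.111). After centring 5 of these 13 genes were called lower. Of 24 genes of the mTORC1 pathway and its inhibitors 4 rose and 6 fell, 41.7% in all, near the share over all genes. RPTOR, the subunit that recruits mTORC1 substrates, read 7.83 and 7.60 against 6.16 and 6.15 and fell by 1.56 ± 0.14 (adjusted p = 3.23e-07). RICTOR, its counterpart in mTORC2, fell by 1.30 ± 0.20, and the mTORC1 inhibitor DDIT4 fell by 1.18 ± 0.18. The inhibitor SESN2 rose by 1.19 ± 0.14 and SESN1 by 1.10 ± 0.15. The number of higher genes of this list was 2 after centring.

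The enzymes that handle AICAR and make purines had 9 of 23 members lower and 1 higher. Adenosine kinase, ADK, which converts AICAR to ZMP, read 8.18 and 8.59 in DMSO and 6.86 and 7.33 in AICAR. The groups did not overlap, and ADK fell by 1.30 ± 0.19 (adjusted p = 3.82e-05). ADSL, which acts both upstream of ZMP and in AMP synthesis, read 9.50 and 9.58 against 8.18 and 8.39 and fell by 1.25 ± 0.15, and PFAS and GMPS, enzymes of the purine ring and of GMP, fell by 0.98 ± 0.14 and 0.94 ± 0.15. The list's median was 0.04, and it was -0.06 after quantile normalisation and -0.11 after centring. Folate and pyrimidine synthesis had 10 of 21 genes lower and 1 higher, and the median was -0.33. The mitochondrial folate enzyme MTHFD2 read 10.52 and 10.43 against 8.71 and 8.95 and fell by 1.64 ± 0.14, and DHODH, of pyrimidine synthesis, fell by 1.19 ± 0.18. The uridine-cytidine kinases went in opposite directions, with UCK1 at 7.73 and 7.83 against 8.95 and 9.08 and UCK2 at 9.66 and 9.61 against 8.44 and 8.40. UCK1 rose by 1.24 ± 0.14 and UCK2 fell by 1.21 ± 0.14.

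The amino acid response fell broadly. ATF4 is the transcription factor that induces amino acid synthesis, transport and tRNA charging when amino acids are short, and of 39 genes on its list 21 fell and 2 rose, with a median of -0.54. ATF4 itself read 10.55 and 10.53 in DMSO and 8.18 and 8.36 in AICAR and fell by 2.27 ± 0.15 (adjusted p = 1.33e-08). Its other probe set changed by -1.01. Besides SLC7A11 and MTHFD2, the phosphoserine phosphatase PSPH read 9.30 and 9.57 against 7.82 and 8.08 and fell by 1.48 ± 0.16, with -2.13 on its other probe set. The members that rose were SESN2, also a p53 target, and ATF3 (1.37 ± 0.14), also an immediate early gene. Targets of the antioxidant factor NRF2 had 8 of 26 lower and 2 higher, and 13 lower after centring. In the main fit that is 38.5% called in all, near the 37.8% of all genes tested. NFE2L2, the gene of NRF2, read 9.82 and 9.91 against 8.43 and 8.71 and fell by 1.29 ± 0.14, and the conjugate exporter ABCC2 fell by 1.50 ± 0.15. The inhibitor KEAP1 was not called (-0.14). Chaperones of the endoplasmic reticulum and the unfolded protein response had 5 of 23 lower and 1 higher, which is near the share over all genes. Their regulator XBP1 fell by 1.07 ± 0.14 and the chaperone HSPA5 fell by 0.67 ± 0.14, and the related factor CREB3L2 fell by 1.36 ± 0.17. Heat shock genes had 3 of 14 lower, led by the constitutive chaperone HSPA8 (-0.91), and 2 higher, led by BAG3 (0.68). These shares were also near those over all genes.

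Genes that build ribosomes moved mostly in one direction. Of 40 genes of ribosome biogenesis and RNA polymerase I 27 fell and 1 rose, and the median was -0.56. TAF1D, a subunit of the selectivity factor of RNA polymerase I, read 9.17 and 9.31 in DMSO and 7.31 and 7.38 in AICAR and fell by 1.90 ± 0.13 (adjusted p = 1.62e-08). The ribosome assembly factor RRS1 read 7.98 and 8.42 against 6.76 and 6.98 and fell by 1.33 ± 0.17. DKC1, the pseudouridine synthase of box H/ACA RNAs, fell by 1.11 ± 0.15 and UTP20, of the small subunit processome, fell by 1.11 ± 0.17. Cytosolic ribosomal proteins had 26 of 58 genes lower and 0 higher, and the median was -0.34. RPL23 read 8.42 and 8.20 against 6.65 and 6.92 and fell by 1.53 ± 0.15, RPL10 fell by 1.40 ± 0.16, RPL22 fell by 1.19 ± 0.20 and RPL27 fell by 0.94 ± 0.15. Ribosomal protein genes have many near-identical pseudogenes that their probes may also bind, so single members are uncertain. Without DMSO array 2 the falls were 16 for biogenesis and 15 for ribosomal proteins, and without AICAR array 1 they were 15 and 15.

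Small nucleolar RNAs, which guide the modification of ribosomal and spliceosomal RNA and are mostly cut from introns, moved by class. Of 146 tested together with the Cajal body RNAs 62 fell and 26 rose, with a median of -0.32. Box C/D members, which guide methylation and carry SNORD names, had 47 of 76 lower and 5 higher, with a median of -0.75. Box H/ACA members, which guide pseudouridylation and carry SNORA names, had 14 of 56 lower and 11 higher, with a median of 0.02 that was -0.13 after centring. The small Cajal body RNAs, or SCARNA genes, had 10 of 14 higher and 1 lower, with a median of 0.54, and 6 higher after centring. Without AICAR array 2 that number was 4. After SNORD12C the largest falls were in SNORD49A at 7.40 and 8.12 in DMSO against 5.05 and 4.97 in AICAR, SNORA62 (-2.66), and SNORD52 at 8.31 and 8.39 against 5.45 and 5.93. Their groups did not overlap, which the rule for naming the lowest genes required. The split into classes was made after the values were seen. Probe sets of small nucleolar RNAs can also bind the host transcript and near-identical copies.

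Replication-dependent histone genes fell together. Of 38 tested members 24 fell and 1 rose, with a median of -0.88, and 10 further members were left out as dim. H4C2 read 9.55 and 9.62 in DMSO and 7.06 and 7.29 in AICAR and fell by 2.41 ± 0.17 (adjusted p = 1.5e-08). H2BC14 read 10.77 and 10.74 against 8.64 and 8.48 and fell by 2.19 ± 0.15. The linker histone H1-2 fell by 2.11 ± 0.18 and H3C2 fell by 1.97 ± 0.16. These genes are made in S phase, and their copies are near-identical, so the members of a family cannot be told apart with certainty.

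Other S phase genes moved in both directions. Of 49 genes of DNA replication and S phase 14 rose and 6 fell, with a median of 0.14. That is 40.8% called in all, near the 37.8% of all genes tested. The cyclins that open S phase rose, with CCNE2 at 6.05 and 6.39 against 8.51 and 8.89 (2.48 ± 0.19) and CCNE1 at 8.46 and 8.26 against 9.55 and 9.58 (1.21 ± 0.14). E2F1, the factor that drives S phase genes, read 7.35 and 7.49 against 8.49 and 8.64 and rose by 1.14 ± 0.14 (adjusted p = 6.1e-06). PRIM1, the primase subunit, fell by 1.15 ± 0.15. After centring 8 rose and 9 fell, and the median was -0.02. The rises numbered 9 without DMSO array 1 or AICAR array 2, and the falls numbered 3 without DMSO array 2 or AICAR array 1. Genes of mitosis and the kinetochore had 8 of 56 higher and 5 lower, below the share over all genes, and the counts were sensitive to the arrays, with 14 higher after quantile normalisation, 5 higher without DMSO array 1 or AICAR array 2, and 3 lower without DMSO array 2 or AICAR array 1. The falls were 9 after centring or with an intensity trend, and 8 in a fit of the 4 arrays alone. The condensin subunit SMC4 fell by 1.68 ± 0.19 and the checkpoint kinase BUB1B fell by 1.00 ± 0.17, while the kinesin CENPE and the centrosomal kinase NEK2 each rose by 1.03. G1 regulators had 9 of 25 higher and 7 lower. CDK6, the kinase partner of D cyclins, read 9.59 and 9.44 against 7.53 and 7.91 and fell by 1.79 ± 0.19. The CDK inhibitor CDKN2B rose by 1.40 ± 0.17, and TFDP2, a partner of E2F factors, fell by 1.41 ± 0.17.

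Some targets of p53 rose in the cells that carry the p53 hairpin. Of 14 genes of growth arrest and feedback 8 rose and 1 fell. CDKN1A, the inhibitor of cyclin-dependent kinases that arrests the cycle downstream of p53, read 6.14 and 6.32 in DMSO and 8.02 and 7.96 in AICAR. Both AICAR arrays lay above both DMSO arrays, and the rise was 1.76 ± 0.13 or 3.39-fold (adjusted p = 4.26e-08). PLK2 read 6.29 and 6.44 against 8.80 and 9.16, a rise of 2.62 ± 0.17, and its relative PLK3 read 6.39 and 6.42 against 8.39 and 8.63, a rise of 2.11 ± 0.14. TP53INP1, a stress protein that acts in autophagy and p53 activation, rose by 1.69 ± 0.13. MDM2, the feedback inhibitor of p53, read 9.78 and 9.96 against 9.96 and 10.12, and its difference of 0.17 ± 0.14 was not called (adjusted p = 0.33). GDF15, a stress cytokine, was the member that fell (-0.94). It was at 0.24 with AICAR in sh-con cells, and limma's test of the difference between the lines was called (-1.17, adjusted p = 0.0136).

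Among 15 p53 targets of apoptosis and death receptors 6 rose and 1 fell, with a median of 0.20. PMAIP1, the BH3-only protein NOXA, read 5.41 and 5.72 in DMSO and 7.82 and 7.85 in AICAR and rose by 2.27 ± 0.18 (adjusted p = 6.03e-08). The decoy receptor TNFRSF10D rose by 1.34 ± 0.15, the death receptor FAS by 0.80 ± 0.15 and the death domain protein PIDD1 by 0.77 ± 0.15. BAX, the pore-forming effector, was at -0.04 and not called. Of 17 targets of repair and metabolism 6 rose and 4 fell, and the falls numbered 1 or 2 when any array was left out. The ceramidase ACER2 read 6.13 and 5.62 against 6.99 and 6.99 and rose by 1.11 ± 0.22, and PANK1, which makes coenzyme A, read 7.62 and 7.63 against 6.28 and 6.11 and fell by 1.43 ± 0.17. The plot of p53 targets sets each of these beside its change with AICAR in sh-con cells and with Nutlin in sh-p53 cells. In sh-con cells the growth arrest list had 12 of 14 higher, with a median of 1.72 against 0.81 in sh-p53. The interaction, which tests the difference between the lines, was called more negative in sh-p53 for 4 of 14 growth arrest targets, 3 of 15 apoptosis targets and 3 of 17 targets of repair and metabolism. It was called more negative for 0.709% of all genes tested.

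**Figure D3:**
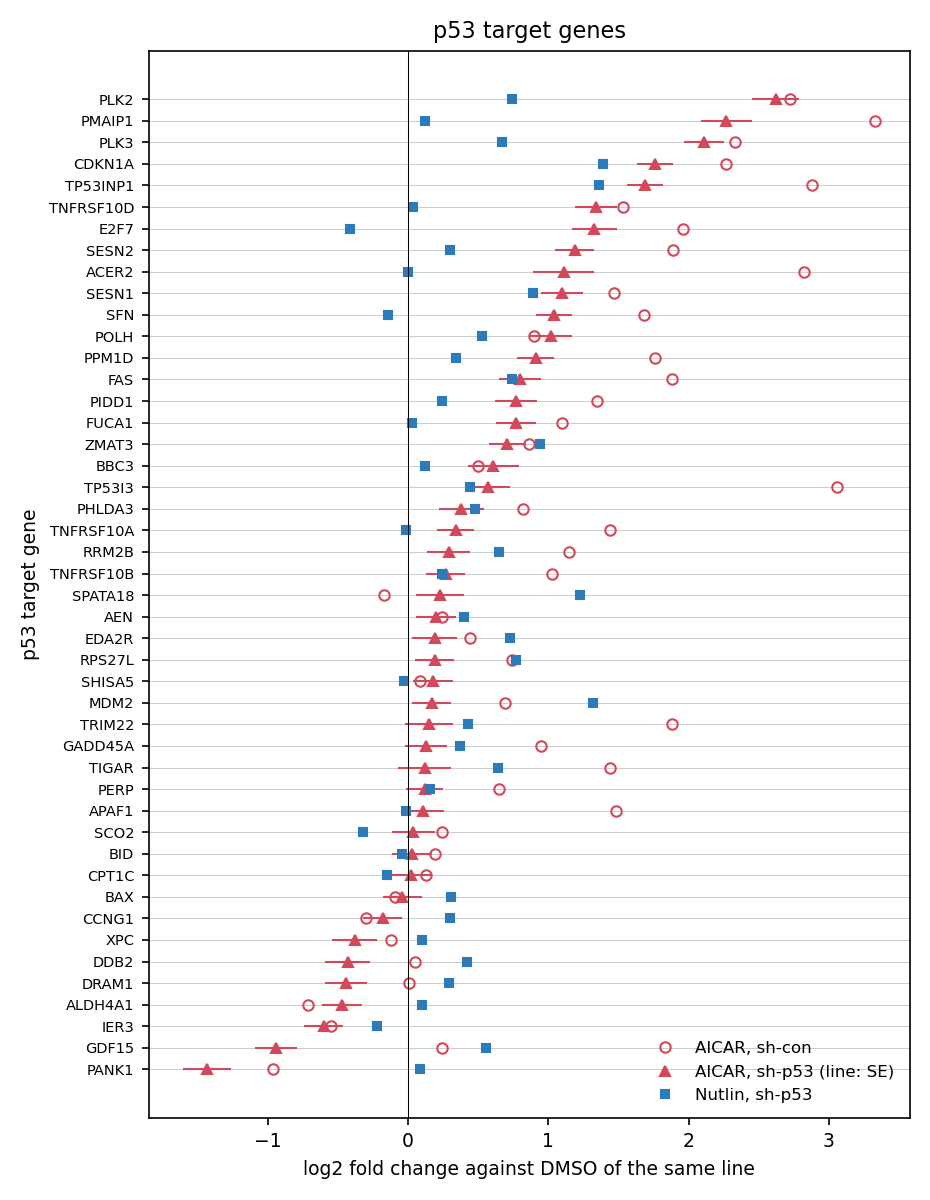
Log2 fold change against DMSO of the same line (x axis) for the p53 targets of 3 lists (rows), with AICAR in sh-p53 as filled triangles with a line for the SE, AICAR in sh-con as open circles and Nutlin in sh-p53 as squares. CDKN1A is at 1.76, 2.27 and 1.39, and MDM2 at 0.17, 0.69 and 1.32.

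Signalling genes of the growth factor and stress pathways were mixed. Of 38 immediate early genes and feedback regulators of MAP kinases 14 rose and 11 fell. DUSP10, a phosphatase of p38 and JNK, read 5.38 and 5.58 in DMSO and 7.84 and 7.92 in AICAR, and the AP-1 subunit JUNB read 6.84 and 6.79 against 8.54 and 8.63, a rise of 1.77 ± 0.14 (adjusted p = 4.26e-08). The members that fell include the ERK phosphatase DUSP6 (-1.22), the receptor kinase inhibitor SPRY1 (-1.20) and the growth factor target MYC (-1.17). Among 10 EGF receptor ligands and receptors HBEGF alone rose and 4 fell. The feedback inhibitor ERRFI1 fell by 1.26 ± 0.16 and the receptor ERBB3 fell by 0.90 ± 0.15, and 2 fell without AICAR array 1. In the insulin-like growth factor system 6 of 13 fell and 1 rose. Besides IGFBP1, the receptor IGF1R read 8.49 and 7.99 against 6.74 and 6.94 and fell by 1.40 ± 0.18, with -2.22 on its other probe set. The insulin receptor, INSR, fell by 1.36 ± 0.16, and IGF2BP3, which binds the IGF2 message, fell by 1.78 ± 0.14.

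Protein kinase C and phospholipase C genes had 5 of 16 lower and 3 higher. PRKCA read 8.33 and 8.06 in DMSO and 5.55 and 5.79 in AICAR and fell by 2.52 ± 0.16 (adjusted p = 5.87e-09). PLCB1, which makes its activator diacylglycerol, read 8.79 and 8.67 against 6.37 and 6.43 and fell by 2.33 ± 0.16. The lower count of this list was 3 with a stricter filter on dim genes. Receptor tyrosine phosphatases had 3 of 8 lower, PTPRK (-2.55), PTPRG (-1.87) and PTPRM (-1.86), and 1 higher. Of 23 genes of the Hippo and TGF-beta response 10 fell and 3 rose, and the rises were 6 after quantile normalisation and 5 with an intensity trend. The Hippo effector YAP1 read 9.49 and 9.49 against 8.39 and 8.30 and fell by 1.15 ± 0.19, and its DNA-binding partner TEAD1 fell by 1.28 ± 0.20. ID1, a target of BMP signalling, read 9.61 and 9.91 against 7.44 and 7.69 and fell by 2.19 ± 0.18. Genes of NF-kappaB and the acute phase had 5 of 15 higher, NFKB2 (0.91) and CXCL8 (0.80) among them, and 3 lower, and the rises were 2 after centring, 2 without AICAR array 1 and 3 without DMSO array 1. The falls were 1 without AICAR array 1. Of 16 interferon response genes 5 rose and 1 fell, and 3 rose after centring, with a stricter filter or without DMSO array 2. In the main fit 37.5% of the interferon list was called in all, near the 37.8% of all genes tested. The interferon regulatory factor IRF1 read 5.64 and 5.70 against 7.09 and 7.65 and rose by 1.70 ± 0.20, and OAS1, an antiviral synthetase, fell by 1.18 ± 0.16.

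Among lipid genes, sterol synthesis had 11 of 17 members higher and 1 lower, with a median of 0.46. IDI1, which isomerises the isoprene unit, read 9.66 and 9.83 in DMSO and 11.19 and 11.37 in AICAR, a rise of 1.53 ± 0.14 (adjusted p = 1.75e-07). MVD rose by 1.07 ± 0.15, SC5D by 1.05 ± 0.14 and the sterol carrier STARD4 by 0.94 ± 0.14. The regulator SREBF2 was not called (0.21), and 7 of the 24 listed genes were not tested. Fatty acid and triglyceride synthesis had 8 of 18 higher and 2 lower, with a median of 0.17. ACSS2, which makes acetyl-CoA from acetate, read 7.88 and 7.92 against 9.55 and 9.77 and rose by 1.76 ± 0.15, and LPIN1, a phosphatidate phosphatase, rose by 1.10 ± 0.15. Of these 18 genes 3 rose without DMSO array 2 or AICAR array 2, and after centring 3 rose and 3 fell. Fatty acid oxidation and ketogenesis had 7 of 25 lower and 1 higher. The exception was CPT2 of the carnitine shuttle (1.04 ± 0.16), while the regulator PPARA fell by 0.77 ± 0.15 and the lipid droplet protein PLIN2 fell by 0.75 ± 0.15.

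Lists of glucose output and mitochondria were mixed in direction, while in the main fit far more autophagy and lysosome genes rose than fell. In gluconeogenesis and glucose output 9 of 23 fell and 5 rose. The liver glucose transporter SLC2A2 read 8.51 and 8.61 in DMSO and 6.58 and 6.58 in AICAR and fell by 1.98 ± 0.15 (adjusted p = 4.43e-08). PPARGC1A, the coactivator of gluconeogenesis and mitochondrial biogenesis, read 7.25 and 7.02 against 6.00 and 6.13 and fell by 1.07 ± 0.14. The rises were 3 after centring or without AICAR array 1, 2 without DMSO array 2 and 1 with a stricter filter. The genes G6PC1, FOXO3 and CREB3L3 rose in the main fit but were too dim to be tested under that filter. Mitochondrial biogenesis had 6 of 16 lower and 4 higher. The methyltransferase TFB1M fell by 1.81 ± 0.15 and GABPB1, a subunit of the nuclear respiratory factor GABP, fell by 1.50 ± 0.16, while the mitochondrial DNA polymerase POLG rose by 0.86 ± 0.14. Nuclear genes of oxidative phosphorylation stayed below the share over all genes, with 8 of 69 lower and 4 higher, led by the complex I subunits NDUFV2 (-0.95) and NDUFS4 (-0.94). The falls were 13 after centring, 5 without DMSO array 2 and 4 without AICAR array 1, and the rises were 7 after quantile normalisation, 0 after centring, 0 without DMSO array 1 or AICAR array 2, and 2 without DMSO array 2 or AICAR array 1. Autophagy and lysosome genes had 13 of 32 higher and 1 lower, with a median of 0.30, and 5 higher and 4 lower after centring. NEU1 read 10.13 and 10.31 against 11.56 and 11.74 and rose by 1.42 ± 0.14, MAP1LC3B, which coats autophagosomes, rose by 1.31 ± 0.15, and WIPI1 fell by 1.34 ± 0.17. The rises were 6 without DMSO array 1, 8 without DMSO array 2 and 5 without AICAR array 2.

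Lists of hepatocyte function, other than the apolipoproteins, held members that rose and members that fell. Plasma proteins, coagulation and complement had 4 of 40 higher and 3 lower, and C8A, of the membrane attack complex, fell by 1.24 ± 0.16. The rises were 1 after centring or without DMSO array 1 and 2 without AICAR array 1, and the falls 6 after quantile normalisation or with an intensity trend and 9 after centring. Apolipoproteins and lipid transfer had 0 of 19 higher and 3 lower, and the sterol exporter subunit ABCG5 fell by 0.85 ± 0.16. The plasma protein list had 17.5% of members called and the apolipoprotein list 15.8%, below the 37.8% of all genes tested. Hepatocyte transcription factors had 7 of 20 lower and 2 higher. HNF4G read 7.26 and 7.35 against 5.12 and 4.94 and fell by 2.27 ± 0.19, NR5A2, of bile acid and sterol control, fell by 1.13 ± 0.17, and GATA6 rose by 0.87 ± 0.17. Of 30 cytochrome P450 and conjugation genes 9 fell and 3 rose, 40% in all, near the share over all genes. CYP4F2, which oxidises long-chain fatty acids and vitamin K, read 4.98 and 4.90 against 7.09 and 6.90 and rose by 2.06 ± 0.17, and the steroid reductase AKR1D1 fell by 1.64 ± 0.17. The falls were 4 without DMSO array 2 and 5 without AICAR array 1. Bile acid synthesis and transport had 4 of 13 lower and 1 higher, 38.5% in all, also near the share over all genes. ATP8B1, a canalicular lipid flippase, was at -1.74, and 7 genes of this list were lower after centring. Clock genes had 6 of 17 lower, NPAS2 (-1.69) and CLOCK (-0.97) among them, and 4 higher, led by CRY2 (1.31). Mucins had 2 of 10 higher and 1 lower, MUC15 (-1.38).

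Of 21 genes often used as references 4 rose and 3 fell, 33.3% in all, near the 37.8% of all genes tested. POLR2A, the large subunit of RNA polymerase II, read 8.97 and 8.54 in DMSO and 10.30 and 10.47 in AICAR and rose by 1.63 ± 0.17 (adjusted p = 9.73e-07). The cyclophilin PPIA rose by 1.19 ± 0.14, EIF4A2 fell by 1.19 ± 0.14 and the importin IPO8 fell by 0.77 ± 0.17. ACTB and GAPDH were not called, at -0.06 and -0.16. The rises were 7 after quantile normalisation, 2 after centring and 2 without DMSO array 1. The directions of POLR2A and EIF4A2 held under both scalings.

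The change with AICAR went with the length of a gene's locus, the span from start to end of transcription in RefSeq, which was known for 13798 of the genes tested. Of 3776 genes under 10 kb 22.9% rose and 9.24% fell, with a median of 0.21. Of 1706 genes of 100 to 300 kb 2.99% rose and 54.6% fell, with a median of -0.46, and of 363 genes over 300 kb 1.65% rose and 63.4% fell, with a median of -0.74. Genes of 30 to 100 kb lay between, with 12% higher and 24.7% lower. Among the genes that fell at least 2-fold 57.7% were over 100 kb, against 15% of all genes tested and 1.71% of those that rose at least 2-fold. The median for genes over 300 kb was -0.74 after quantile normalisation and -0.90 after centring. It was -0.76 with AICAR in sh-con cells and -0.05 with Nutlin in sh-p53 cells, which shares the DMSO arrays.

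The same was visible in each array. The mean of genes over 300 kb minus the mean of genes under 30 kb was -0.07 and -0.15 in sh-p53 DMSO, -0.16 and -0.19 in sh-p53 Nutlin and -0.99 and -0.96 in sh-p53 AICAR. In sh-con cells it was -0.02 and -0.11 in DMSO and -0.88 and -1.01 in AICAR. The AICAR arrays of both lines lie far below the others and do not overlap with them. Among genes brighter than the median of the 13813 tested, 118 of 133 genes over 300 kb fell and 0 rose, with a median of -1.15. Genes of this length named above include PRKCA, of 508.1 kb, PTPRK of 551.8 kb, PLCB1 of 752.6 kb, PTPRM of 839.5 kb and RPTOR of 421.5 kb. They also include ADK of 558.1 kb, PPARGC1A of 680.9 kb, PTPRG of 736.0 kb and IGF1R of 316.0 kb. Of the highest genes ARRDC4 spans 13.1 kb, HBEGF 13.8 kb, MUC13 29.3 kb and DUSP10 40.7 kb, and the median of the genes that rose at least 2-fold was 13.4 kb, against 24.3 kb for all genes tested. The change also went with the mean level of a gene, with medians of 0.20, 0.19, 0.02, -0.11 and -0.16 over 5 equal groups of the genes tested, from the dimmest to the brightest. Lists that hold long or short genes share this pattern, and its part in their counts was not tested.

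**Figure D4:**
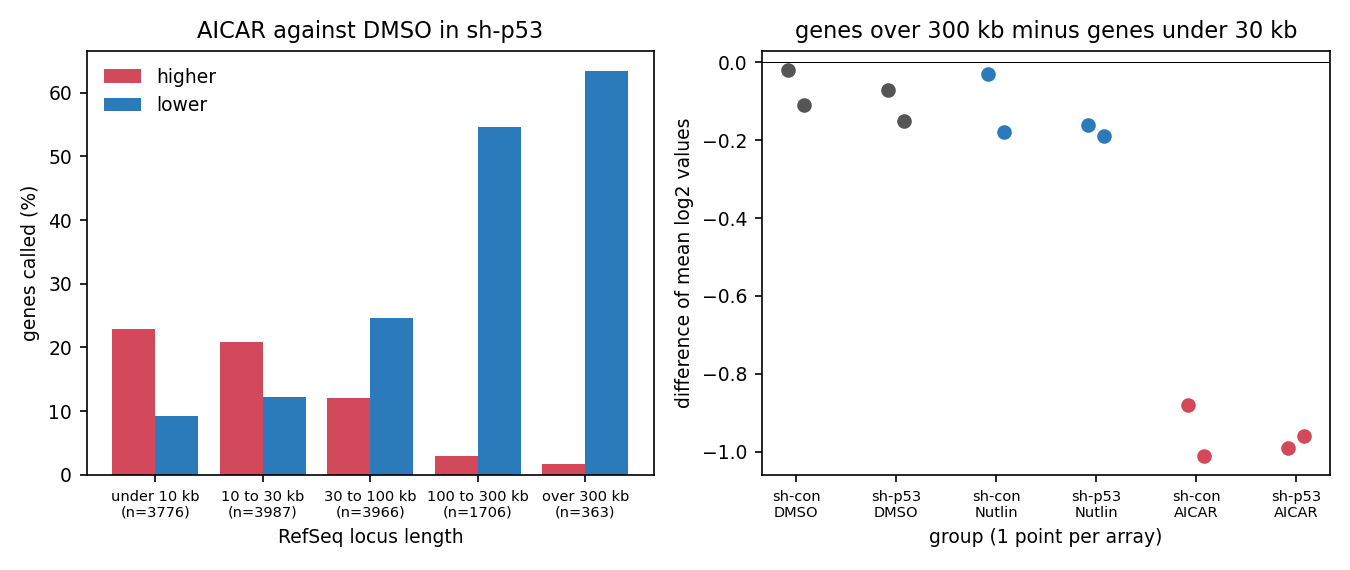
Left, percent of tested genes called higher and lower with AICAR in sh-p53 cells by RefSeq locus length, with the number of genes under each bin. Right, mean log2 value of genes over 300 kb minus that of genes under 30 kb in each of the 12 arrays, with 2 points per group; the sh-p53 AICAR arrays are at -0.99 and -0.96 and the sh-p53 DMSO arrays at -0.07 and -0.15.

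Most of the response was shared with the line that carries the control hairpin. AICAR against DMSO in sh-con cells, which uses 4 other arrays, called 14.6% of genes higher and 23.2% lower, 2023 and 3198 genes. Without sh-con DMSO array 1 those counts were 1164 and 2009, and 1103 were higher after centring. Of the genes that rose in sh-p53 cells 52.3% also rose in sh-con, and of those that rose in sh-con 57.7% rose in sh-p53. Of the genes that fell in sh-p53 77.4% also fell in sh-con, and of those that fell in sh-con 72.2% fell in sh-p53. There were 22 genes called in opposite directions. Across the 13813 genes, which are not independent replicates, the log2 fold changes of the lines correlated at 0.847, and of the 1098 genes that changed at least 2-fold in sh-p53 1093 had the same sign in sh-con. ARRDC4 changed by 3.98 in sh-p53 and 3.92 in sh-con, and SLC2A1 by -2.07 and -1.51. The plot of the responses shows most genes along the diagonal.

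The interaction was called for 140 genes, 98 more negative (0.709%) and 42 more positive (0.304%) in sh-p53, of which 54 were not called in sh-p53 cells at all. Of the 98 genes 76 rose in sh-con cells, and 39 of those were not called in sh-p53. CABYR, a calcium-binding protein of sperm, showed the largest difference. It read 4.69 and 4.42 in sh-p53 DMSO, 5.07 and 5.05 in sh-p53 AICAR, 4.32 and 4.46 in sh-con DMSO and 8.38 and 8.53 in sh-con AICAR. CABYR thus rose by 0.50 in sh-p53 and 4.07 in sh-con, an interaction of -3.57 ± 0.20 (adjusted p = 1.78e-08). TP53I3, a quinone reductase and p53 target, read 7.56 and 7.78 against 8.12 and 8.36 in sh-p53 and 7.98 and 8.06 against 11.13 and 11.02 in sh-con. Its interaction was -2.49 ± 0.22 (adjusted p = 9.21e-06). CSTA, a cysteine protease inhibitor, CLTRN, a collectrin that traffics amino acid transporters, and HCAR3, a hydroxy acid receptor, were not called in sh-p53 (-0.11, -0.26 and 0.28) and rose in sh-con by 2.22, 2.23 and 2.51. LACC1 rose by 0.61 against 2.92 and ZSCAN4 by 1.29 against 3.55. The DMSO means of ZSCAN4, LACC1, CLTRN and CABYR lay under the dim level in both lines, so the sizes of their changes are uncertain. FBXW7, the substrate receptor of a ubiquitin ligase for cyclin E and MYC, read 6.02 and 6.15 against 5.32 and 5.30 in sh-p53 and 6.39 and 6.31 against 7.82 and 7.50 in sh-con. FBXW7 fell by 0.78 ± 0.20 in the former and rose by 1.31 ± 0.20 in the latter.

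Of the 42 genes that were more positive in sh-p53 22 rose there and 26 fell in sh-con. PLAU, the urokinase plasminogen activator, read 5.70 and 6.04 in sh-p53 DMSO and 8.22 and 8.30 in sh-p53 AICAR, and 5.42 and 5.60 against 6.33 and 6.38 in sh-con. It rose by 2.39 ± 0.14 and 0.85 ± 0.14, an interaction of 1.55 ± 0.20 (adjusted p = 0.000647). HCFC1, a chromatin cofactor of E2F and other factors, read 8.57 and 8.21 against 8.64 and 8.88 in sh-p53 and 8.57 and 8.60 against 7.52 and 7.08 in sh-con. It was not called in sh-p53 (0.36) and fell by 1.29 ± 0.17 in sh-con. BAHD1, a silencing factor, rose by 1.03 ± 0.15 in sh-p53 and was at -0.23 in sh-con, an interaction of 1.26 ± 0.21. The other 5 of the 8 most positive, FAM111B (1.39), CRYBG1 (1.28), SNORA20 (1.16), GPER1 (1.15) and CAD (1.14), lost the call when single arrays were left out, with adjusted p of 0.0524 to 0.163, and FAM111B also with no filter on dim genes. Without sh-con DMSO array 1 all 5 lost it. The counts of both directions moved with single arrays. Genes more positive in sh-p53 numbered 3 to 14 without any 1 array of sh-p53 or of sh-con DMSO, 73 without sh-con AICAR array 1 and 30 without sh-con AICAR array 2. Genes more negative numbered 35 to 64 without any 1 array other than sh-con AICAR array 2, and 170 without that one. In S phase genes, which had 14 higher and 6 lower in sh-p53 and 10 higher and 20 lower in sh-con, 1 of 49 interactions was called.

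**Figure D5:**
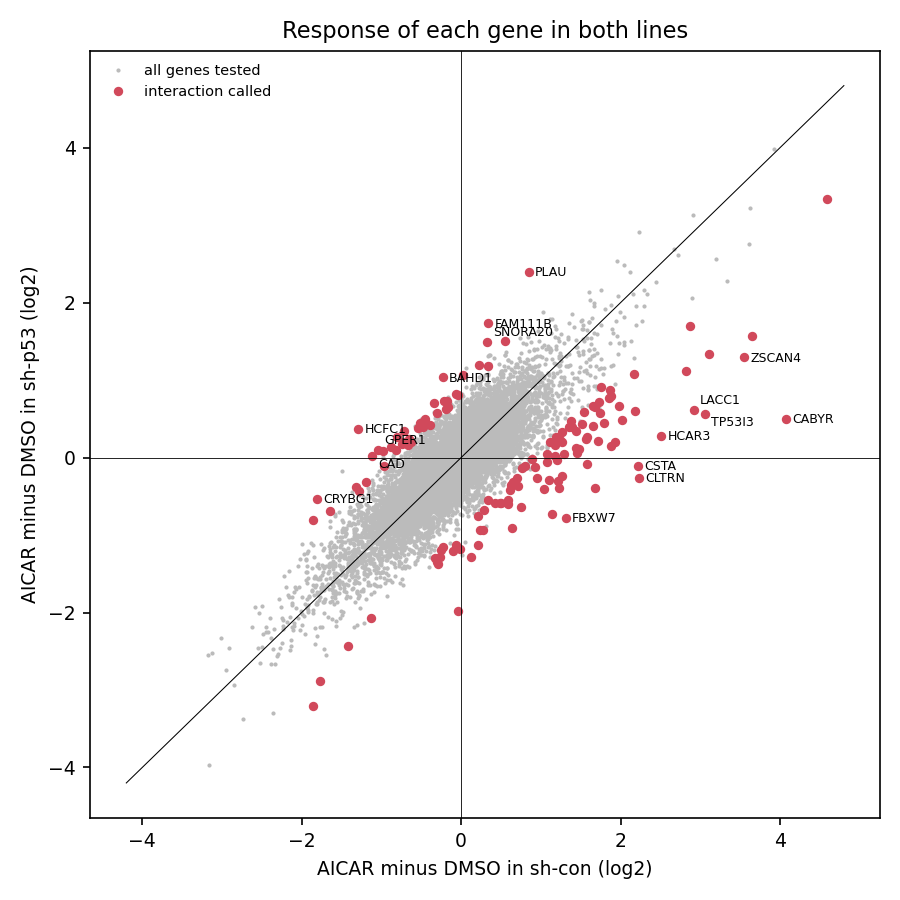
Log2 fold change of AICAR against DMSO in sh-con (x axis) and sh-p53 (y axis) for the 13813 genes tested, with the 140 genes whose interaction was called as larger points, the 16 named genes labelled and the line of equal change drawn. CABYR sits at 4.07 and 0.50, and PLAU at 0.85 and 2.39.

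AICAR and Nutlin were compared directly in sh-p53 cells. AICAR arrays were higher than Nutlin arrays for 2151 genes (15.6%) and lower for 2624 (19%), and 1342 were higher after centring. The 6 genes furthest above were MUC13 (3.76 ± 0.17), ARRDC4 (3.47), HBEGF (3.32), RND1 (2.89), CCNE2 (2.82) and HCP5 (2.81). Those furthest below were SNORD12C (-3.92 ± 0.18), SLC7A11 (-3.42), IGFBP1 (-3.35), TTC39B (-3.23), SLC6A14 (-2.99) and the alcohol dehydrogenase ADH4 (-2.69). ADH4 read 5.31 and 5.40 with AICAR, 8.14 and 7.94 with Nutlin and 7.32 and 7.70 with DMSO. The lower count was 1667 without Nutlin array 1 and 1669 without AICAR array 1. Cell cycle lists separated the compounds. S phase genes were higher with AICAR than Nutlin in 29 of 49 and lower in 2, and mitotic genes higher in 33 of 56 and lower in 1. Against the shared DMSO arrays the S phase median was 0.136 with AICAR and -0.395 with Nutlin. The mitotic median was -0.023 with AICAR and -0.518 with Nutlin, so mitotic genes as a list did not rise with AICAR. With Nutlin 0 members of either list were called against DMSO.

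Nutlin itself called 11 genes against the same DMSO arrays, 0.0796% of those tested, and all 11 rose. By limma's test 0 genes fell, and 860 had an unadjusted p under 0.05. The number that rose was 5 without either DMSO array or without Nutlin array 1, and 24 rose and 24 fell when the fit used only the 6 sh-p53 arrays. Because both compounds share the DMSO arrays, the values are given side by side with the direct test. CDKN1A read 7.61 and 7.63 with Nutlin and 8.02 and 7.96 with AICAR, changes of 1.39 and 1.76, and the difference was 0.37 (adjusted p = 0.0409). MDM2 read 11.20 and 11.17 with Nutlin and 9.96 and 10.12 with AICAR, changes of 1.32 and 0.17, and the difference was -1.15 (adjusted p = 4.86e-06). TP53INP1 changed by 1.36 and 1.69, SESN1 by 0.89 and 1.10 and the RNA-binding protein ZMAT3 by 0.94 and 0.71, with differences that were not called. MR1, which presents microbial metabolites to T cells, rose more with AICAR (1.57 against 0.85), and CYGB, a globin, less (0.50 against 1.12). ACTA2, smooth muscle actin, rose by 1.35 with Nutlin and fell by 0.68 with AICAR, a difference of -2.03 (adjusted p = 6.81e-08). SPATA18, SULF2 and SULT2A1 rose with Nutlin (1.23, 0.89 and 1.09) and were not called with AICAR (0.23, -0.12 and -0.36), and each direct difference was called.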

How the data were processed

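Total RNA (200 ng per sample, extracted with TRI reagent) was biotin-labelled and hybridised to Affymetrix arrays, per the labels' protocols. The authors deposited 1 value per probe set and array as log2 intensity, normalised with RMA in Partek per the submitters' processing notes; their versions are not given in the sources used here. Of 33297 probe sets, 19460 carried 1 gene symbol in the platform annotation, 1754 several and 12083 were not listed. Where a gene had several such sets (769 genes) the brightest was used. Dim genes, with a mean over the 12 arrays below 4.58 (the 25th percentile), were left out. No column went unassigned to a sample (0 left out).

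A group-means model over all 12 arrays was fitted with limma 3.58.1 in R 4.3.3 (eBayes), and p-values were adjusted by Benjamini-Hochberg over the 13813 genes tested, with calls at 0.05. The fit was tested on simulated data with independent noise and the same spread for every gene. That test checks the calculation and does not measure the error rate in these data. The 5 contrasts came from the fit. They were AICAR against DMSO in each line, their difference (the interaction), and AICAR against Nutlin and Nutlin against DMSO in sh-p53. Replicates are biological duplicates by their labels, so the small number of arrays limits the precision. Members and gene lists were chosen with earlier results of these data known. Genes were named by rule: the 12 highest and 12 lowest called genes whose groups do not overlap, up to 4 called members per list with the largest change, CDKN1A and MDM2, the 8 most positive and 8 most negative interactions, and the 6 highest and 6 lowest against Nutlin. Any other gene was chosen after its values were seen. Sequences and locus lengths are RefSeq's on GRCh38.p14. Alternatives were another scaling, filter, probe set rule, set of arrays or variance model, a replicate block, and each array left out. The transcript targeted by the hairpin is not reported here.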

Additional observations from a re-analysis of the deposited data

Results flagged for a closer look

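For 7 genes named by rule in the comparison of AICAR with DMSO in sh-p53 cells, the response differed from that in sh-con cells by the interaction term of limma's fit. All 7 differences are more negative in sh-p53. MUC13 rose by 3.34 in sh-p53 and 4.59 in sh-con, a difference of -1.25 ± 0.25 (adjusted p = 0.0191). TP53INP1 rose by 1.69 against 2.88, a difference of -1.18 ± 0.19 (adjusted p = 0.00399). The death receptor FAS rose by 0.80 against 1.88, a difference of -1.08 ± 0.21 (adjusted p = 0.0191), and the ceramidase ACER2 by 1.11 against 2.82, a difference of -1.71 ± 0.32 (adjusted p = 0.0136). These last 3 genes are on the lists of p53 targets.

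The other 3 genes fell further in sh-p53 cells. IGFBP1 changed by -3.20 against -1.86, a difference of -1.35 ± 0.30 (adjusted p = 0.0426). The amino acid transporter SLC6A14 changed by -2.89 against -1.77, a difference of -1.12 ± 0.24 (adjusted p = 0.0325). The mTORC1 inhibitor DDIT4 fell by 1.18 in sh-p53 and was at -0.01 in sh-con, a difference of -1.17 ± 0.26 (adjusted p = 0.0365). Groups of 2 arrays are too small to flag a single array as standing apart.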

How the results depend on the processing

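Of 173 genes named by rule in AICAR against DMSO in sh-p53 cells, 162 lost no call under any alternative run. MDM2 is counted among them though it was not called in the main fit. The call was lost under at least 1 alternative by 11 genes (PRKAA1, ACLY, STIP1, ADAM10, PTPRU, HP, ABCA1, APOA5, HPX, SLC51B and MUC12), and 0 reversed. Centring each array gave 1100 genes higher, and leaving out 1 array gave 1382 to 1848 higher and 1925 to 2813 lower. For the interaction, genes more positive in sh-p53 numbered 132 after quantile normalisation, 15 after centring, 94 with the stricter filter and 102 with an intensity trend, and genes more negative 215 after quantile normalisation and 175 with the trend. Leaving out 1 array gave 3 to 73 more positive and 35 to 170 more negative. AICAR against Nutlin had 1342 genes higher after centring, and 1539 to 1738 higher and 1667 to 2564 lower without 1 array. Other counts of genes in these 3 comparisons stayed within 1.5 times. The fit of the 6 sh-p53 arrays alone was not run for the interaction. Of 16 named interactions 5 lost the call. The cause of these changes was not tested. Deviations of arrays with the same replicate number correlated at 0.264 between sh-p53 DMSO and sh-p53 AICAR and at -0.558 to 0.567 over all pairs of groups, and nothing in the labels pairs them, so the numbers were not taken as pairs. With the replicate block 2315 genes were higher and 2978 lower, the interaction had 47 more positive and 113 more negative, and AICAR against Nutlin had 2156 higher and 2617 lower. Changes near or under the dim level of 4.58 are uncertain in size.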

Other observations

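Outside the lists, families of genes were grouped by the start of their symbols after the values were seen, so their counts are a description. They are to be read against the 16.2% higher and 21.6% lower among all genes tested. Of the families in this paragraph only ZNF was counted under the other settings. Zinc finger genes whose symbols start with ZNF rose with AICAR in sh-p53 cells in 149 of 392 cases and fell in 45, with a median of 0.28. After centring 93 rose, with a median of 0.13, and without DMSO array 1 87 rose. Subunits of the mitochondrial ribosome went the other way, with 20 of 48 MRPL genes lower and 1 higher, and 11 of 26 MRPS genes lower and 1 higher. Integrator subunits (INTS), which process small nuclear RNAs, had 8 of 15 lower and 2 higher, with a median of -0.73 against -0.58 in sh-con. Exosome subunits (EXOSC), which trim RNA from its 3′ end, had 6 of 10 lower and 0 higher, and CCR4-NOT subunits (CNOT), which shorten poly(A) tails, 7 of 11 lower and 0 higher. Nucleoporins (NUP) had 11 of 22 lower and 1 higher. The median locus was 84 kb for CNOT and 59.1 kb for NUP, but 11.1 kb for EXOSC and 8.19 kb for MRPL, against 24.3 kb for all genes tested. The part of locus length in these counts was not tested. Lysosomal cathepsins and other genes that start with CTS had 6 of 11 higher and 0 lower, with a median of 0.39.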
